A study of Mus musculus with 18 samples.

Results

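The comparison described here sets IFN-treated macrophages labelled as knockouts of L13a, the product of Rpl13a, against IFN-treated wild type macrophages. It uses 6 of the 18 libraries of the series, and 12514 of the 21954 genes in the deposited table passed a filter on low counts and were tested. The 3 knockout libraries are called knockout 4, 5 and 6 and the 3 wild type libraries wild type 4, 5 and 6, after the numbers in their titles. All were prepared from poly-A RNA of bone marrow derived mouse macrophages, which are cells grown from marrow progenitors in culture. The knockout group is labelled only as L13a knockout macrophages treated with IFN and the wild type group only as wild type control macrophages treated with IFN. The series title says that the knockout is specific to macrophages. The labels give neither the allele, the promoter that drives any Cre recombinase, the mouse strain, nor the age. They also do not give the type of IFN, its dose or the hours of exposure. The other 12 libraries are knockout and wild type macrophages left untreated or given IL4, 3 libraries in each of 4 groups. Whether replicates of a group are separate animals or cultures is not stated, so the p-values measure only the spread between these libraries, which may be technical.

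L13a belongs to the large ribosomal subunit. In human monocytic cells exposed to interferon-gamma it is phosphorylated by a kinase relay that runs through DAPK and ZIPK, leaves the ribosome and joins EPRS, SYNCRIP (also called NSAP1) and GAPDH in the GAIT complex, which binds the 3' ends of selected inflammatory mRNAs and blocks their translation. Because GAIT acts on translation, transcript levels need not follow its activity. Interferons signal through JAK kinases and STAT proteins to a large set of genes in macrophages, among them the guanylate binding proteins, the p47 GTPases, chemokines such as Cxcl9 and the antigen presentation genes.

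Total expected counts of the 6 IFN libraries ran from 18098711 to 22551200. The libraries were alike in overall profile, with Pearson correlations of log2 CPM (read counts scaled to library depth) across genes from 0.939 to 0.973. The first principal component, with 36.1% of the variance, did not separate the genotypes but placed knockout 4 and knockout 6 at its ends, and the second, with 21%, placed every knockout library above every wild type library. Transcripts of 3 Y-linked genes (Ddx3y, Eif2s3y and Uty) summed to 0 CPM in all 3 knockout libraries, against 145, 116 and 0 CPM in wild type 4, 5 and 6. Kdm5d, also Y-linked, stood at 2.33, 2.07 and 3.15 CPM in knockout and 23.8, 17.9 and 3.19 CPM in wild type, in the same order. Presence of the 3 summed transcripts, called Y-linked transcripts below, is therefore partly tied to genotype in these libraries. Its part in the results was not tested beyond the values given with it as a covariate. Untreated wild type libraries 2 and 3, which enter the estimate of spread, differed from each other least of all replicate pairs (chi-square over its degrees of freedom 6, and 51.5 for the next closest pair). Leaving out untreated wild type 3 gave 7 calls in place of 8, with Lyz1 lost.

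The targeted gene, Rpl13a (chromosome 7, 45125558 to 45128761, minus strand, mm10), stood at 248, 189 and 425 CPM in knockout 4, 5 and 6, against 437, 552 and 618 CPM in wild type 4, 5 and 6. Every knockout library lay below every wild type library, and the highest knockout library, 6, lay just under the lowest wild type library. The means were 287 ± 123 CPM in knockout and 536 ± 91.3 CPM in wild type (SD, n = 3 each), so the knockout mean was 53.6% of the wild type mean. The two-sided exact permutation test of the difference gave p = 0.1, the smallest that 3 against 3 libraries allow. In the edgeR test over all genes, Rpl13a had a log2 fold change of -0.90 (SE 0.388, adjusted p = 0.772) and was not called. The labels do not say which exons were deleted, and ribosomal protein genes have near-identical processed copies among which reads can be divided, so the residual signal does not measure intact L13a mRNA.

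Of the 12514 genes, 8 were called at an adjusted p under 0.05 by edgeR's quasi-likelihood test, which is 0.0639% of the genes tested. Of these, 3 were higher in the knockout (0.024% of genes) and 5 were lower (0.04% of genes). The higher genes were Lyz1, Pira2 and Fam177a, and the lower ones were Lyz2, Rab4a, Cnbd2, Camk2b and Rbm44. None of them is in the interferon lists described further on. At an unadjusted p under 0.05 there were 724 genes (5.79%), 280 of them higher and 444 lower. The libraries of the 2 genotypes did not overlap at 1168 genes (9.33%), 453 of which were higher (3.62%) and 715 lower (5.71%) in the knockout. Calls at an adjusted p under 0.05 numbered 3, 2 and 6 without knockout 4, 5 and 6. Without wild type 4, 5 and 6 they numbered 3, 2 and 3. Lyz2 and Rab4a were the genes called in all of these fits. With Y-linked transcripts as a covariate, Lyz2, Rab4a and Cnbd2 kept their call and the other 5 of the 8 lost it.

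**Figure D1:**
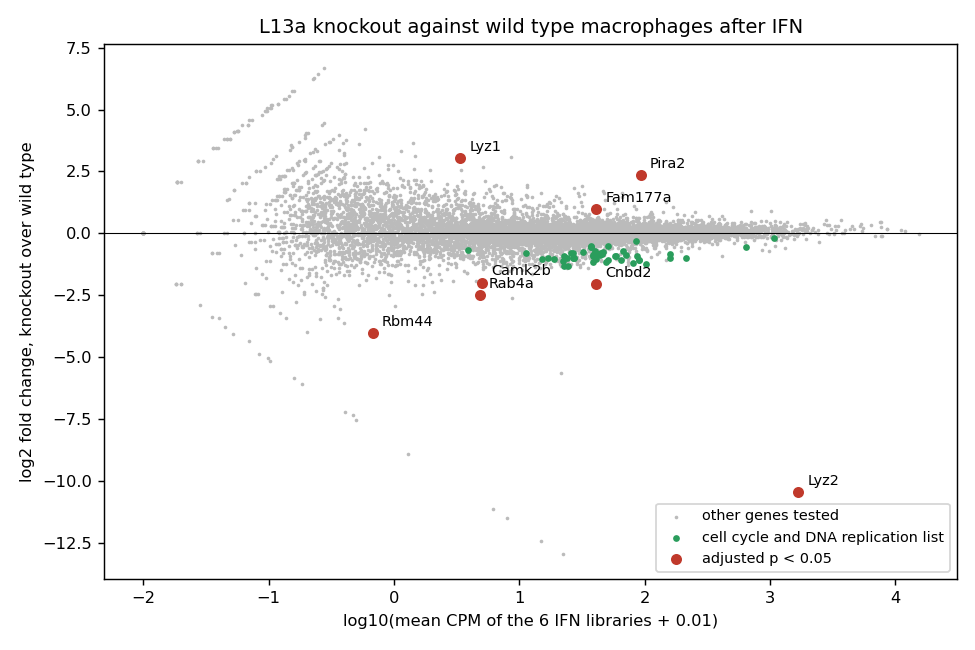
Log2 fold change of knockout over wild type after IFN (vertical) against log10 of the mean CPM of the 6 libraries + 0.01 (horizontal), 1 point per gene tested. Lyz2 lies at -10.46, the 8 called genes are red, and all 50 cell cycle genes (green) lie below 0; the unlabelled points under -10 are genes such as Ddx3y, found in wild type 4 and 5 and at 0 in the other IFN libraries.

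Lyz2, which encodes the M-type lysozyme that macrophages secrete to cleave bacterial cell walls, showed the widest difference among the called genes. It stood at 2.9, 2.95 and 1.19 CPM in knockout 4, 5 and 6, against 2881, 3096 and 4094 CPM in wild type 4, 5 and 6. The knockout mean was 0.0699% of the wild type mean, a difference of 1430-fold, and the log2 fold change was -10.46 (SE 0.626, adjusted p = 2.94e-07). Per length, the knockout held 3.13 ± 1.32 TPM and the wild type 4754 ± 389 TPM (SD, n = 3 each). Lyz2 is also the locus in which a widely used macrophage Cre driver was inserted, and the labels do not state which driver was used here.

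Lyz1, its tandem neighbour, encodes the P-type lysozyme, best known from Paneth cells of the gut. The 2 genes lie 5476 bases apart on the minus strand of chromosome 10 (Lyz1 at 117287797 to 117292868, Lyz2 at 117277331 to 117282321, mm10). Lyz1 stood at 6.11, 8.4 and 3.63 CPM in knockout 4, 5 and 6, against 0.656, 0.891 and 0.662 CPM in wild type 4, 5 and 6. Every knockout library lay above every wild type library, and the knockout mean was 8.21-fold the wild type mean (log2 3.03, SE 0.501, adjusted p = 0.0344). The counts behind it were small, 341 expected counts over the 3 knockout libraries and 42 over the 3 wild type libraries. The genes are close paralogs, and how reads common to both were divided between them is not given in the sources used here. On the length-corrected scale Lyz1 in the knockout, at 8.08 ± 3.16 TPM, was far below Lyz2 in the wild type. Of the other genes tested within 200 kb of the pair, Cpsf6, Frs2 and Yeats4, none was called.

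The 250 bases before the start sites of both lysozyme genes are printed because the 2 neighbours differed in opposite directions while their upstream sequences are close copies. They come from RefSeq on GRCm38.p6 and read 5' to 3' along the genes, with capitals marking the longest run that the windows share, 50 bases that end at the base before the RefSeq start site. For Lyz1 that start matches the gene coordinates given above. For Lyz2 the window begins at 117282273, inside the gene as given above, so most of its capitals fall within that annotated gene.
Lyz2 (chr10:117282273-117282522, minus): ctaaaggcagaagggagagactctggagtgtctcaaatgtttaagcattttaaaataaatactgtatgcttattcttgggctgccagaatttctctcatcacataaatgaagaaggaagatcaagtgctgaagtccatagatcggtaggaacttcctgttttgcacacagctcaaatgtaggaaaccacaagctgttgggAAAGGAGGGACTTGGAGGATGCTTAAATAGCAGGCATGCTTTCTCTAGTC
Lyz1 (chr10:117292869-117293118, minus): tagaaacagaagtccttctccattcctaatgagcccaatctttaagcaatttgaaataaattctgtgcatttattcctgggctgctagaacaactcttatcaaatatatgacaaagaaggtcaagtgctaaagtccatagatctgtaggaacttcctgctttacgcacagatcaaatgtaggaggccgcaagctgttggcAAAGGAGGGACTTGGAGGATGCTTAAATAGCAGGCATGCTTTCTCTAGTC
In a global alignment the windows were identical at 200 of 252 positions (79.4%).

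Pira2 encodes an activating paired immunoglobulin-like receptor of myeloid cells and lies on chromosome 7 (3836812 to 3845051, minus strand). It stood at 108, 211 and 148 CPM in knockout 4, 5 and 6, against 23.8, 25 and 43.7 CPM in wild type 4, 5 and 6. The groups did not overlap, and the knockout mean was 5.05-fold the wild type mean (log2 2.34, SE 0.33, adjusted p = 0.0126). The receptors form a family of near-identical copies, so reads may have been divided among members. Pirb, the inhibitory member in the same cluster, stood at 492 ± 91.5 CPM in knockout and 390 ± 89.1 CPM in wild type (log2 0.34, adjusted p = 0.983), a difference within the spread of the libraries. Of the 12 genes tested within 200 kb of Pira2 none was called by edgeR or DESeq2, and 2 did not overlap between the genotypes, Gm14548 and Lair1 (9.33% of all genes did not overlap). Gm14548 stood at 10.6, 31.1 and 17.7 CPM in knockout 4, 5 and 6, against 10.2, 7.62 and 8.91 CPM in wild type 4, 5 and 6 (log2 1.15, SE 0.351, adjusted p = 0.572). Gm15448 stood at 3.57, 7.78 and 4.4 CPM in knockout 4, 5 and 6 and at 0.908, 1.29 and 4.22 CPM in wild type 4, 5 and 6 (log2 1.36, SE 0.482, adjusted p = 0.722).

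Fam177a (chromosome 12, 55124469 to 55142104, plus strand) had the smallest called difference. It stood at 51.9, 64.3 and 47.9 CPM in knockout 4, 5 and 6, against 30, 24.8 and 28.1 CPM in wild type 4, 5 and 6, with no overlap. The knockout mean was 1.98-fold the wild type mean (log2 0.99, SE 0.148, adjusted p = 0.0197). Nearby, 1700047I17Rik2 stood at 23.2 ± 5.45 CPM in knockout and 11.1 ± 1.84 CPM in wild type (SD, n = 3 each; log2 1.07, edgeR adjusted p = 0.31, and 0.00658 with the library number as a block). Srp54a, a subunit of the signal recognition particle, stood at 25.5 ± 8.9 CPM in knockout and 14.3 ± 3.34 CPM in wild type (SD, n = 3 each; log2 0.83, adjusted p = 0.74). Srp54b, a further Srp54 gene nearby, stood at 133 ± 2.7 CPM in knockout and 101 ± 1.2 CPM in wild type, without overlap (log2 0.39, edgeR adjusted p = 0.549). By edgeR without the block none of these neighbours was called. DESeq2 called 1700047I17Rik2 (adjusted p = 0.0152) and Srp54b (0.0408). Srp54a was called neither by DESeq2 nor with the block (0.349), and Srp54b was not called with the block (0.166).

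Rab4a encodes a small GTPase of early endosomes that returns cargo to the cell surface (chromosome 8, 123805985 to 123835287, plus strand). It stood at 1.19, 1.45 and 1.72 CPM in knockout 4, 5 and 6, against 8.28, 8.26 and 8.25 CPM in wild type 4, 5 and 6. Each group was tight, and the knockout mean was 17.6% of the wild type mean (log2 -2.51, SE 0.307, adjusted p = 0.0032). The predicted gene Gm20388 overlaps Rab4a and stood at 136 CPM in the knockout, so reads in shared sequence are uncertain. Of the neighbours, Nup133, a nuclear pore component, stood at 29 ± 5.24 CPM in knockout and 44.3 ± 3.62 CPM in wild type (log2 -0.62, adjusted p = 0.48). Ccsap stood at 3.27 ± 1.97 CPM in knockout and 6.99 ± 1.27 CPM in wild type (log2 -1.12, adjusted p = 0.752). Neither was called.

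Cnbd2, a cyclic nucleotide binding domain protein known chiefly from the male germ line (chromosome 2, 156312299 to 156375638, plus strand), stood at 13, 12.8 and 22.2 CPM in knockout 4, 5 and 6, against 47.5, 66 and 83.7 CPM in wild type 4, 5 and 6. The knockout mean was 24.3% of the wild type mean (log2 -2.04, SE 0.322, adjusted p = 0.028). Its annotation overlaps that of Scand1, and the labels do not say whether counting used strand, so reads from the shared stretch cannot be assigned with certainty.

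Camk2b, the beta subunit of calcium/calmodulin-dependent kinase II (chromosome 11, 5969644 to 6066362, minus strand), stood at 1.92, 1.97 and 2.14 CPM in knockout 4, 5 and 6, against 8.63, 7.17 and 8.25 CPM in wild type 4, 5 and 6. The knockout mean was 25% of the wild type mean (log2 -2.00, SE 0.336, adjusted p = 0.0367). It was the only called gene among the 19 tested genes of a list of calcium and calmodulin kinase genes, whose median log2 fold change was 0.05.

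Rbm44, an RNA-binding protein described in germ cells (chromosome 1, 91145089 to 91170795, plus strand), was near the detection limit. It had 0, 2 and 2 expected counts in knockout 4, 5 and 6, against 29, 17 and 25 in wild type 4, 5 and 6. The knockout mean was 5.84% of the wild type mean (log2 -4.02, SE 0.736, adjusted p = 0.0337), and the size of that fold rests on the few knockout counts.

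**Figure D2:**
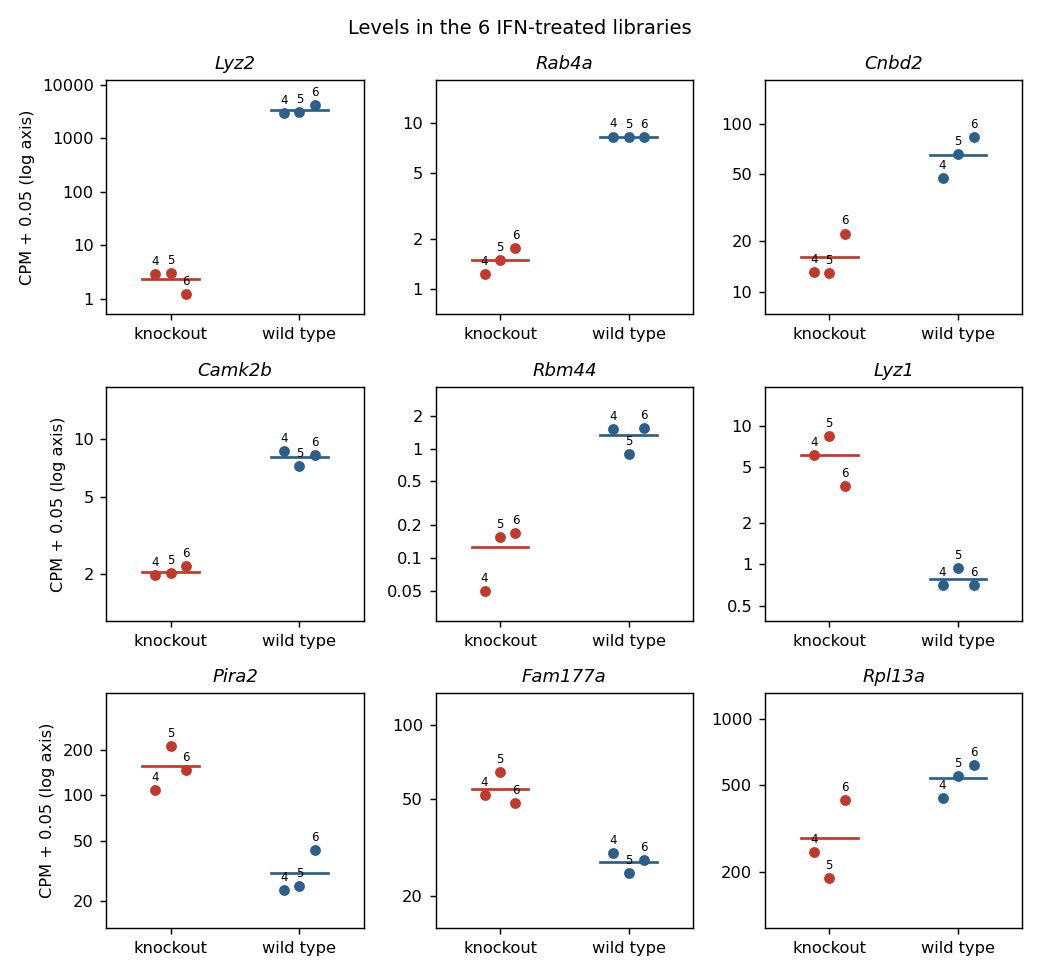
CPM + 0.05 on a log axis in each IFN library for the 8 called genes and Rpl13a, with knockout left of wild type, points numbered by library and bars at group means. In none of the 9 panels do the groups overlap. Of the knockout libraries, 6 lies nearest to wild type in every panel except those of Lyz2 and Pira2.

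Whether these differences belong to the IFN state was asked by testing the genotype difference after IFN minus that in untreated cells, and likewise minus that after IL4. By edgeR's quasi-likelihood test no gene was called for a difference from untreated cells (0.0% of genes; 617 genes or 4.93% at an unadjusted p under 0.05; 26 called by DESeq2) or from IL4 (0.0%; 146 genes or 1.17% at an unadjusted p under 0.05; 4 called by DESeq2). Without wild type 6 these tests called 9 genes and 4 genes. The genotype comparison itself called 10 genes (0.0799%; 7.54% at an unadjusted p under 0.05) in untreated cells and 8 (0.0639%; 2.46% at an unadjusted p under 0.05) after IL4. The 8 called genes lay on the same side of 0 in all 3 treatments. Pira2 had log2 fold changes of 2.00 in untreated cells, 2.34 after IFN and 2.03 after IL4, and Fam177a had 1.04, 0.99 and 0.91 in that order. Lyz2 had -11.34, -10.46 and -10.30, although its wild type level itself was 11180 ± 802 CPM untreated, 3357 ± 647 CPM after IFN and 5168 ± 1430 CPM after IL4 (SD, n = 3 each).

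Rab4a showed the lowest p for an IFN-dependent difference among the called genes. Its knockout mean was 4.61 ± 1.91 CPM untreated, 1.46 ± 0.266 CPM after IFN and 2.81 ± 0.494 CPM after IL4, while wild type stood at 10.7 ± 0.472, 8.26 ± 0.0134 and 9.47 ± 1.93 CPM (SD, n = 3 each). The log2 genotype difference after IFN minus that in untreated cells was -1.26 (SE 0.399, unadjusted p = 0.00621), but this did not pass adjustment over all genes (adjusted p = 0.775). Rbm44 differed from IL4 by -2.46 on the log2 scale (SE 1.09, adjusted p = 1).

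**Figure D3:**
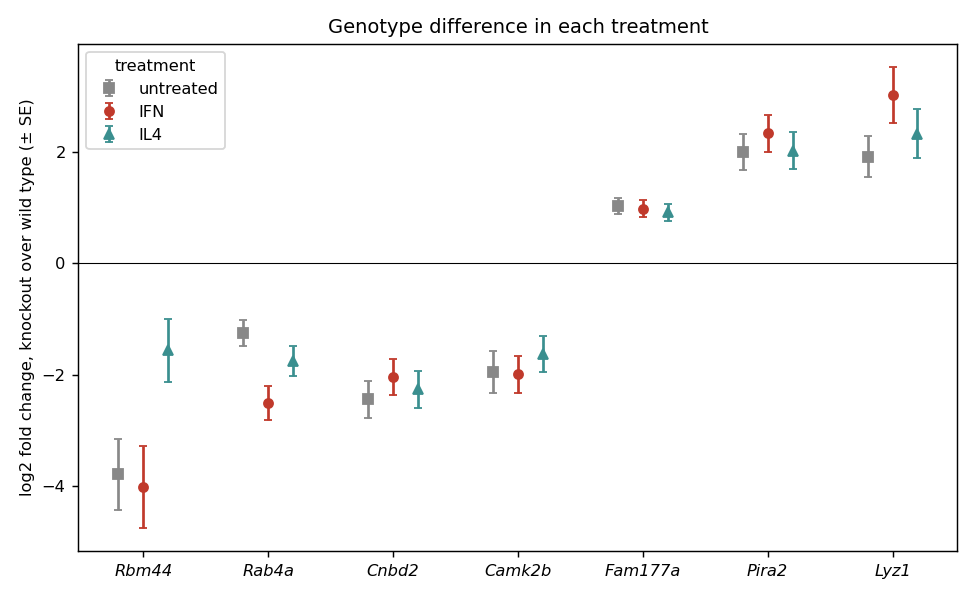
Log2 fold change of knockout over wild type (vertical, ± SE from the edgeR fit) in untreated, IFN-treated and IL4-treated macrophages for 7 called genes; Lyz2 is left out because its values, -11.34, -10.46 and -10.30, would compress the axis. Each gene keeps its side of 0 in all 3 treatments, and Rab4a is lowest after IFN.

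Genes of the cell cycle and DNA replication lay low in the knockout. Their median was the lowest of the lists with at least 5 tested genes; the list of 4 Y-linked genes lay lower, at -11.79. The list comprised 50 genes, among them the Mcm helicase subunits, DNA polymerases, cyclins, kinesins and E2f1. None was called by edgeR or DESeq2, but all 50 had log2 fold changes below 0, 20 had an unadjusted p under 0.05 on the lower side (3.55% of all genes tested did) and at 31 the knockout libraries all lay below the wild type libraries (5.71% of all genes). The median was -0.91, beside 0.02 over all genes, and was -0.44 in untreated cells and -0.38 after IL4. The members vary together within a library and are not independent observations.

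Pole, the catalytic subunit of DNA polymerase epsilon, stood at 9.48, 10.6 and 21.8 CPM in knockout 4, 5 and 6, against 37.6, 32.2 and 34.7 CPM in wild type 4, 5 and 6 (log2 -1.33, SE 0.422, adjusted p = 0.572). Mcm7, a subunit of the replicative helicase, stood at 35.6, 32.7 and 79 CPM in knockout 4, 5 and 6, against 103, 123 and 108 CPM in wild type 4, 5 and 6 (log2 -1.18, SE 0.442, adjusted p = 0.741). In both genes knockout 6 lay much closer to wild type than knockout 4 and 5 did. Mki67, the proliferation marker, overlapped between the genotypes, with 33, 14.6 and 76.8 CPM in knockout 4, 5 and 6 and 129, 65.3 and 70.8 CPM in wild type 4, 5 and 6 (log2 -1.10, adjusted p = 0.864). E2f1, the transcription factor that opens S phase, stood at 41.7, 36.4 and 46.8 CPM in knockout 4, 5 and 6, against 52.2, 69.6 and 58.5 CPM in wild type 4, 5 and 6 (log2 -0.53, SE 0.17, adjusted p = 0.572).

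Averaged over the 50 genes, log2 CPM relative to the wild type mean was -1.41, -1.35 and -0.22 in knockout 4, 5 and 6, against -0.11, 0.22 and -0.12 in wild type 4, 5 and 6. Knockout 6, which also held the most Rpl13a of the knockout libraries, thus lay near the wild type range. Without it the list median was -1.54, and without knockout 4 or 5 it was -0.67 or -0.69. In bulk RNA, fewer cycling cells and less of these transcripts per cell cannot be told apart.

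Short sequences around E2F-type motifs are shown because E2F factors are the textbook regulators of this group. The motifs searched were TTTCCCGC and TTTGGCGC on both strands, in RefSeq windows from 250 bases before to 50 bases after each start site (GRCm38.p6), and 333 of 9667 tested genes with a window (3.44%) held at least 1. Of the 12514 genes tested only these 9667 had a window in use, so the 3.44% does not describe all genes tested. Windows were listed for 37 of the 50 genes, under the 80% needed, so a share for the list would be void. The 8 members with the lowest p were looked at, so their number with a motif is not set against all genes. Pole had no window, and E2f1, Brca1 and Mcm2 held no motif. The other 4 held one, shown in capitals in 30 bases that read 5' to 3' along the gene. In Mcm3 these bases lie after the RefSeq start site. In Mcm7 they lie before it, but inside the annotated gene (138164583 to 138172422).
Cdk2 (chr10:128705173-128705202, minus): aaccaggaactGCGGGAAAgttgtgcagct
Pola1 (chrX:93632275-93632304, minus): gtcatcacaggGCGCCAAAtgcactcccgc
Mcm7 (chr5:138172030-138172059, minus): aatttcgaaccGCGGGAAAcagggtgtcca
Mcm3 (chr1:20820275-20820304, minus): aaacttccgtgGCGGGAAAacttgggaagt
The capitals read as the reverse complement of TTTCCCGC in Cdk2, Mcm7 and Mcm3 and of TTTGGCGC in Pola1, a match of letters and not a measured binding site. The 4 genes had log2 fold changes of -0.56 for Cdk2, -1.01 for Pola1, -1.18 for Mcm7 and -1.06 for Mcm3.

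**Figure D4:**
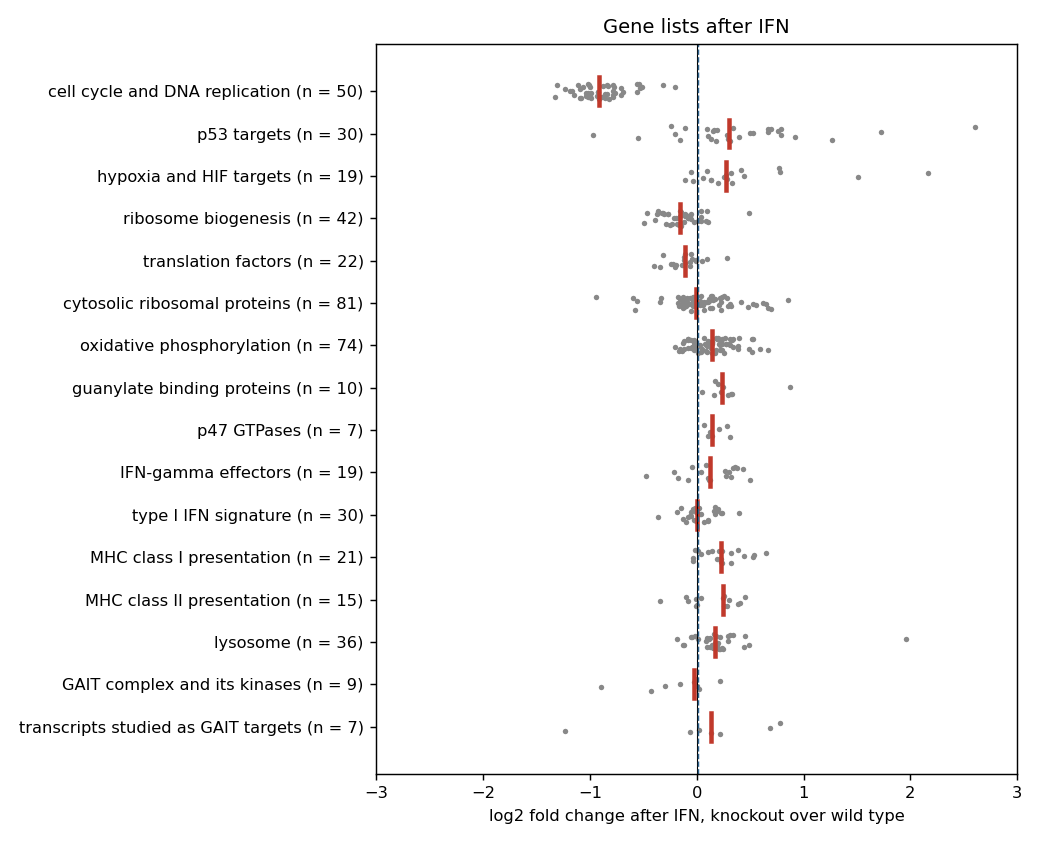
Log2 fold change of knockout over wild type after IFN (horizontal) for the tested members of 16 gene lists, 1 grey point per gene and a red bar at the list median; the dashed line is the median of all genes. The cell cycle list lies wholly below 0 with a median of -0.91, while the interferon lists have medians from 0.00 to 0.25.

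Targets of p53, the transcription factor that halts the cell cycle after damage or ribosomal stress, lay mostly on the higher side. Of 30 tested, 24 were above 0, 8 had an unadjusted p under 0.05 on the higher side (2.24% of all genes did) and 1 on the lower side, and 8 did not overlap and were higher (3.62% of all genes). None was called by edgeR, whereas DESeq2 called 2, Phlda3 and Cdkn1a (0.336% of all genes were called). Over all genes 52.8% were above 0. The list median was 0.30 after IFN, 0.32 in untreated cells and 0.31 after IL4, beside 0.02, 0.01 and 0.00 over all genes.

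Phlda3, a p53-induced inhibitor of Akt, stood at 108, 50.3 and 56.6 CPM in knockout 4, 5 and 6, against 27.6, 20.5 and 16.9 CPM in wild type 4, 5 and 6 (log2 1.72, SE 0.339, adjusted p = 0.149; 0.0055 with the library number as a block). Cdkn1a, which encodes the cyclin-dependent kinase inhibitor p21, stood at 1079, 995 and 678 CPM in knockout 4, 5 and 6, against 453, 512 and 493 CPM in wild type 4, 5 and 6 (log2 0.92, SE 0.225, adjusted p = 0.372). The groups did not overlap for either gene. Bax, a death effector, stood at 280, 156 and 156 CPM in knockout 4, 5 and 6, against 133, 141 and 145 CPM in wild type 4, 5 and 6 (log2 0.50, adjusted p = 0.747), and Mdm2, the ligase that degrades p53, overlapped (log2 0.31, adjusted p = 0.998). Knockout 4 stood apart with a list mean of 0.77, beside 0.19 and 0.16 in knockout 5 and 6 and 0.13, 0.05 and -0.18 in wild type 4, 5 and 6. Without knockout 4 the list median was 0.09.

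Genes induced by hypoxia-inducible factor also lay mostly above 0. Of 19 tested, 16 were above 0 (52.8% of all genes were) and 4 had an unadjusted p under 0.05 on the higher side (2.24% of all genes did). The median was 0.27, beside 0.02 over all genes. None was called by edgeR and 1, Egln3, by DESeq2 (0.336% of all genes were called). Without single libraries the median ran from 0.17 to 0.31. Egln3, an oxygen-sensing prolyl hydroxylase, stood at 2.95, 3.11 and 1.25 CPM in knockout 4, 5 and 6, against 0.454, 0.891 and 0.241 CPM in wild type 4, 5 and 6 (log2 2.17, SE 0.528, adjusted p = 0.372). Ndrg1, a stress-responsive differentiation gene, stood at 27.9, 32.3 and 24.1 CPM in knockout 4, 5 and 6, against 19.5, 13.8 and 16.3 CPM in wild type 4, 5 and 6 (log2 0.77, adjusted p = 0.572).

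The interferon-induced programme was present in both genotypes. The 10 guanylate binding proteins, GTPases that attack intracellular pathogens, summed to 13330, 15230 and 12440 CPM in knockout 4, 5 and 6 and to 11990, 10610 and 13320 CPM in wild type 4, 5 and 6. In the untreated libraries the same sums ran from 42 to 48.4 CPM in knockout and from 54.3 to 69.1 CPM in wild type. The 7 p47 GTPases, which destabilise pathogen vacuoles, summed to 7351, 9505 and 7598 CPM in knockout 4, 5 and 6 and to 6541, 6752 and 8273 CPM in wild type 4, 5 and 6. Both sums overlapped between the genotypes.

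All 10 guanylate binding proteins and all 7 p47 GTPases had log2 fold changes above 0 (52.8% of all genes did), with medians of 0.24 and 0.14. None was called by edgeR or DESeq2, and 1 of the 17, Gbp10, had an unadjusted p under 0.05. Gbp10 stood at 101, 219 and 117 CPM in knockout 4, 5 and 6, against 65.8, 73.8 and 99.4 CPM in wild type 4, 5 and 6 (log2 0.87, SE 0.303, adjusted p = 0.747). Gbp2 stood at 8892, 9822 and 8425 CPM in knockout 4, 5 and 6 and at 7992, 7353 and 8980 CPM in wild type 4, 5 and 6 (log2 0.16, SE 0.369, adjusted p = 1).

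For the 19 interferon-gamma effectors the median was 0.12 and for the 30 genes of a type I interferon signature it was 0.00, with 15 genes above and 15 below 0. In neither list did a gene pass an unadjusted p of 0.05, and neither edgeR nor DESeq2 called one. The spread within a genotype was wider than the difference between genotypes. Mean log2 CPM of the type I signature relative to wild type was -0.79, 0.81 and 0.18 in knockout 4, 5 and 6, against -0.46, -0.49 and 0.95 in wild type 4, 5 and 6. Cxcl9, a chemokine for T cells, stood at 793, 1939 and 1631 CPM in knockout 4, 5 and 6 and at 678, 340 and 2380 CPM in wild type 4, 5 and 6 (log2 0.36, SE 0.497, adjusted p = 1). Its lowest and highest libraries were both wild type. Irf1, a transcription factor of the response, had a log2 fold change of 0.19 (SE 0.325, adjusted p = 1).

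Wild type 6, highest among the wild type libraries in these lists, is also the wild type library without transcripts of Ddx3y, Eif2s3y and Uty. Without it the medians were 0.50 for the interferon-gamma effectors and 0.68 for the type I signature. Without knockout 5 the type I median was -0.34, and without wild type 5 the effector median was -0.05. With Y-linked transcripts as a covariate the medians were -0.05 for the guanylate binding proteins, -0.33 for the p47 GTPases, -0.29 for the interferon-gamma effectors and -0.60 for the type I signature. The direction of these lists was thus not settled by these libraries.

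Most genes of antigen presentation had log2 fold changes above 0. Of 21 genes of MHC class I presentation, 18 were above 0, with a median of 0.23, and of 15 for MHC class II 9 were above 0, with a median of 0.25. Over all genes 52.8% were above 0. None in either list had an unadjusted p under 0.05 or was called by edgeR or DESeq2. Without single libraries the class I median ran from 0.08 to 0.46 and the class II median from 0.0018 (without wild type 5) to 0.33, and with the Y-linked covariate they were -0.0094 and -0.014. With a mean of at least 5 CPM the class II median was 0.04. B2m, the invariant light chain of class I, stood at 8390, 9891 and 7802 CPM in knockout 4, 5 and 6 and at 4986, 5322 and 8858 CPM in wild type 4, 5 and 6 (log2 0.44, SE 0.241, adjusted p = 0.897). Wild type 6 lay among the knockout libraries.

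**Figure D5:**
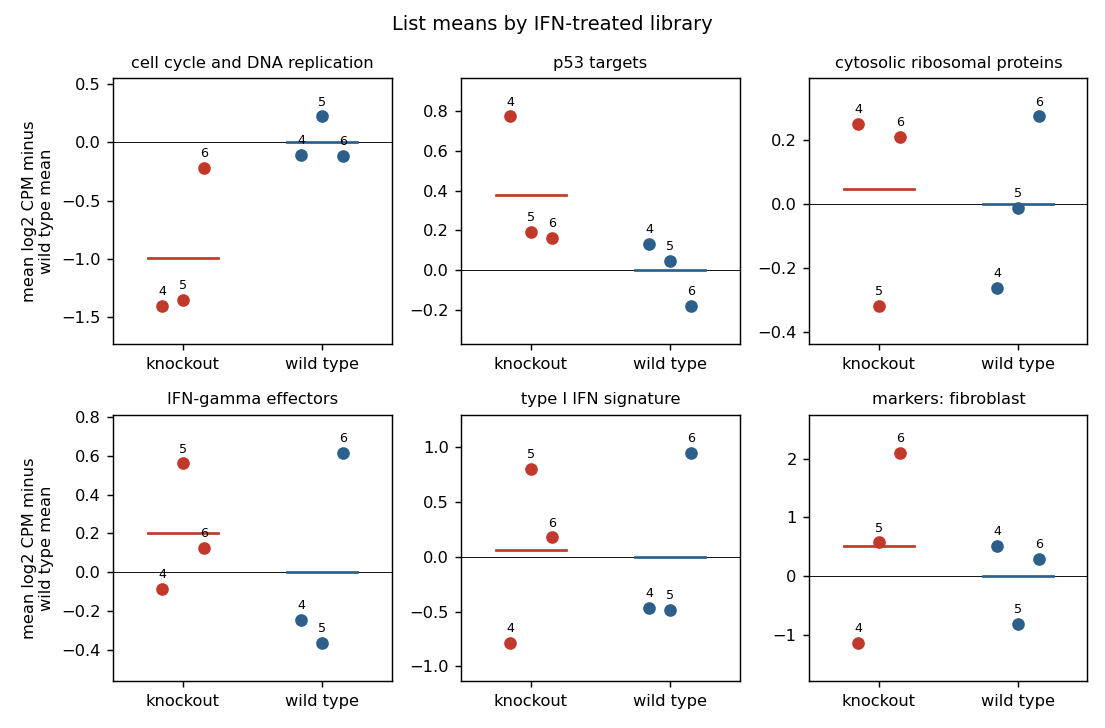
Mean log2 CPM of 6 gene lists in each IFN library, relative to the wild type mean of each gene, with knockout left of wild type, points numbered by library and bars at group means. Knockout 4 and 5 lie at -1.41 and -1.35 for the cell cycle list while knockout 6 lies at -0.22, and the type I signature ranges from -0.49 to 0.95 within wild type.

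Among the GAIT complex proteins and their kinases, 9 genes were tested. Their median was -0.02, none was called by edgeR or DESeq2, and the only one with an unadjusted p under 0.05 was Rpl13a itself. Eprs, the tRNA synthetase that nucleates the human complex, stood at 77.2, 109 and 108 CPM in knockout 4, 5 and 6 and at 124, 129 and 107 CPM in wild type 4, 5 and 6 (log2 -0.30, SE 0.171, adjusted p = 0.902). Dapk1, the upstream kinase, had a log2 fold change of 0.22 (SE 0.252, adjusted p = 1).

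Of 9 transcripts studied as GAIT targets, 7 passed the filter; Cxcl13 and Ccr4 did not, with no library above 0.26 CPM. The tested ones had a median of 0.14, and none was called by edgeR or DESeq2. The median was -0.20 without knockout 5, -0.059 without wild type 4 and -0.042 with the Y-linked covariate. Vegfa, a vascular growth factor, stood at 174, 190 and 73.2 CPM in knockout 4, 5 and 6 and at 118, 77.9 and 57.9 CPM in wild type 4, 5 and 6 (log2 0.78, SE 0.659, adjusted p = 0.994). Cp, which encodes the copper carrier ceruloplasmin and was the first GAIT target studied, stood at 2.8, 17.9 and 3.09 CPM in knockout 4, 5 and 6 and at 3.23, 4.4 and 7.47 CPM in wild type 4, 5 and 6 (log2 0.69, SE 0.652, adjusted p = 0.994). Its positive value rested on knockout 5. Without that library it was -0.75. Ccr3, the eotaxin receptor, was the 1 member with an unadjusted p under 0.05, at 1.09, 6.12 and 2.97 CPM in knockout 4, 5 and 6 and 3.38, 11.2 and 9.45 CPM in wild type 4, 5 and 6 (log2 -1.23, SE 0.497, adjusted p = 0.752). The groups overlapped.

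The list of 81 tested cytosolic ribosomal proteins had a median of -0.01, with 39 above and 42 below 0, whereas in untreated cells its median was -0.74 and after IL4 -0.32. Without single libraries it ran from -0.11 (without wild type 4) to 0.16 (without wild type 6 or knockout 5), and with the Y-linked covariate it was -0.19. None was called by edgeR or DESeq2. At an unadjusted p under 0.05, 5 were higher (2.24% of all genes were) and 1 lower (3.55% of all genes were). Rps27 stood at 409, 252 and 312 CPM in knockout 4, 5 and 6 and at 133, 127 and 279 CPM in wild type 4, 5 and 6 (log2 0.85, SE 0.268, adjusted p = 0.572), with wild type 6 above knockout 5. Rps21 had a log2 fold change of 0.70 (SE 0.275, adjusted p = 0.747) and Rpl10 one of -0.57 (SE 0.231, adjusted p = 0.752). Wild type 6 was the highest wild type library for the list, at 0.27 relative to the wild type mean, beside -0.26 and -0.01 in wild type 4 and 5 and 0.25, -0.32 and 0.21 in knockout 4, 5 and 6.

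Factors that build or use ribosomes lay slightly lower. Of 42 ribosome biogenesis genes 34 were below 0 (median -0.15), and of 22 translation factors 19 were (median -0.11). Over all genes 5882 of 12514 were below 0, with a median of 0.02. No member of the 2 lists was called by edgeR or DESeq2. In each list 2 had an unadjusted p under 0.05, on the lower side (3.55% of all genes did). Eef2, the elongation factor that translocates the ribosome, stood at 2174 ± 210 CPM in knockout and 2769 ± 103 CPM in wild type (SD, n = 3 each; log2 -0.35, SE 0.139, adjusted p = 0.751).

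Macrophage markers were high in both genotypes. Csf1r, the growth factor receptor of the lineage, stood at 3558, 3678 and 3418 CPM in knockout 4, 5 and 6 and at 3367, 3022 and 3262 CPM in wild type 4, 5 and 6 (log2 0.14, adjusted p = 1). Adgre1, which encodes F4/80, had a log2 fold change of 0.32 (adjusted p = 0.972), Cd68 one of 0.47 (adjusted p = 0.858) and Tyrobp one of 0.40 (adjusted p = 0.747). Of the 26 identity genes tested, 22 were above 0 (52.8% of all genes were). Their median was 0.26, beside 0.02 over all genes, and only Lyz2 was called. Of the 18 genes of alternative activation 8 were above and 8 below 0, with a median of 0.00, and none was called by edgeR or DESeq2. Mrc1, the mannose receptor of alternatively activated cells, stood at 9.43, 26.1 and 16 CPM in knockout 4, 5 and 6, against 34.2, 56.6 and 32.6 CPM in wild type 4, 5 and 6 (log2 -1.26, SE 0.381, adjusted p = 0.572). Chil3, a chitinase-like secreted protein, stood at 3.16, 4.56 and 0.119 CPM in knockout 4, 5 and 6 and at 0.252, 0.346 and 0 CPM in wild type 4, 5 and 6 (log2 3.63, SE 1.49, adjusted p = 0.752). Il4ra, the IL4 receptor chain, had a log2 fold change of 0.42 (SE 0.195, adjusted p = 0.843). The groups overlapped for Chil3 and Il4ra but not for Mrc1.

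Of 10 marker lists for other cell types, that for fibroblasts spanned the widest range of summed CPM. Its 16 markers summed to 41.2, 220 and 740 CPM in knockout 4, 5 and 6, against 183, 87.5 and 194 CPM in wild type 4, 5 and 6. All 14 tested had log2 fold changes above 0 (52.8% of all genes did), with a median of 0.90. None had an unadjusted p under 0.05 or was called by edgeR or DESeq2, and without knockout 6 the median was -0.26. Sparc, a matrix protein, stood at 6.58, 39.2 and 169 CPM in knockout 4, 5 and 6 and at 25.9, 14.1 and 30.1 CPM in wild type 4, 5 and 6, and Col1a1 and Col3a1 were likewise highest in knockout 6. Knockout 6 thus combined the most stromal transcripts, the most Rpl13a among knockout libraries and the cell cycle level nearest to wild type. The part of stromal cells in these values was not tested. Osteoblast markers summed to 251 to 461 CPM in knockout and 313 to 450 CPM in wild type, osteoclast markers to 211 to 255 CPM in knockout and 183 to 264 CPM in wild type, and dendritic cell markers to 88.5 to 187 CPM in knockout and 119 to 263 CPM in wild type. Neutrophil, B cell, T and NK cell, mast cell and erythroid marker sums were each under 11 CPM in all 6 libraries, and erythroid markers were at most 1.01 CPM.

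Some genes not called by edgeR had libraries without overlap and a higher group averaging 5 CPM or more. Of these, the 10 higher and 10 lower ones with the lowest edgeR p were taken. DESeq2 called all 10 of the higher ones, with adjusted p from 0.00033 for Phlda3 to 0.027 for Nr1d1. The adjusted p-values that follow are from edgeR. On the higher side, besides Phlda3 and Cdkn1a, were Cercam (log2 1.79, SE 0.377, adjusted p = 0.226, and 0.0132 with the library number as a block), B3gnt5, a glycosyltransferase of lactosylceramide (1.91, SE 0.405, adjusted p = 0.226), and Ephx1, the microsomal epoxide hydrolase (1.91, SE 0.486, adjusted p = 0.48). Nnt, the mitochondrial transhydrogenase that makes NADPH, stood at 44.4, 38.1 and 47.7 CPM in knockout 4, 5 and 6, against 28.9, 26.4 and 27.3 CPM in wild type 4, 5 and 6 (log2 0.66, adjusted p = 0.24). The others were Lzts2, Gng10, Msi2 and Nr1d1, with log2 fold changes of 0.97, 0.76, 0.71 and 1.05.

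On the lower side several genes act in DNA methylation or mitosis. Dnmt1, the maintenance DNA methyltransferase, stood at 90.4, 83.7 and 118 CPM in knockout 4, 5 and 6, against 180, 167 and 142 CPM in wild type 4, 5 and 6 (log2 -0.74, SE 0.173, adjusted p = 0.314). The condensin subunits Ncapd3 and Ncapg2 had log2 fold changes of -0.97 and -0.68, the spindle protein Haus3 -0.79 and the cell cycle regulator Lin9 -0.67. Slc39a8, a zinc importer, stood at 6.58, 5.86 and 7.19 CPM in knockout 4, 5 and 6, against 11.7, 11.8 and 9.57 CPM in wild type 4, 5 and 6 (log2 -0.76, SE 0.161, adjusted p = 0.226). Rnf157, Nup62 and Fsd1l, at -0.79, -0.58 and -1.59, were also in the lower group. DESeq2 called Dnmt1, Haus3, Lin9, Slc39a8, Rnf157 and Fsd1l, but not Ncapd3, Ncapg2 or Nup62.

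With the library number as a block, edgeR called 24 genes (0.192% of those tested), 10 higher (0.0799%) and 14 lower (0.112%), including all 8 already named. Among the other 16 were Phlda3, Cercam and 1700047I17Rik2, the basement membrane collagens Col4a1 and Col4a2, and Ddx3y, Eif2s3y and Uty from the Y chromosome. DESeq2 called 42 genes (0.336%), 18 higher and 24 lower, again including all 8. Among its other 34 were Phlda3, Cdkn1a, Cercam, Egln3, Dnmt1, Srp54b, Ddx3y, Eif2s3y and Uty.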

How the data were processed

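RNA-seq of 18 macrophage libraries was analysed, 6 of them for the comparison after IFN. Per the submitters' processing notes, Bowtie 0.12.8, RSEM 1.2.3 and the mm10 build were used; the annotation and strand setting are not given in the sources used here. The authors made expected counts per gene with RSEM, not normalized, and 21.5% of the deposited values were not whole. The authors also deposited TPM values, which RSEM computed by scaling for transcript length and library total. The remaining deposited table is a signal made by the authors by dividing TPM by a median-based factor per library. The expected counts were rounded here, filtered by filterByExpr and scaled by TMM. They were tested in edgeR 4.0.16 (R 4.3.3; robust quasi-likelihood fit, 1 coefficient per group over all 18 libraries), with Benjamini-Hochberg adjustment over 12514 genes and calls at an adjusted p under 0.05. CPM are TMM-scaled. Standard errors were obtained by dividing each log2 change by the root of its F statistic. In simulated counts of 12514 genes for this comparison, 10.4% of 1.5-fold, 55.2% of 2-fold and 86.4% of 4-fold changes were recovered. Among the genes left unchanged, 9 were falsely called. Counts were simulated for all 18 libraries and fitted in the same way. Changes were set only in genes above a minimum mean count, so the recovery does not cover genes with few counts.

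The members, the 48 gene lists and the tests were chosen with earlier results of these data known. Named genes are the called ones, the 3 list members with the lowest p, a preset list and neighbours within 200 kb. They also include the 10 higher and 10 lower genes without overlap, not called by edgeR, that the text describes. A few further list members (Pola1, Mcm3, Srp54a, Gm15448 and Il4ra among them) were chosen after their values were seen, and some genes that the rule names are not reported here. Coordinates are from GENCODE release 21 for mouse, which matched 21856 of 21954 genes. The numbers in the titles were treated as pairing libraries, from the data alone: deviations from group means correlated at 0.296, 0.135 and 0.276 between same-numbered knockout and wild type libraries over all 12514 genes, and at 0.371, 0.036 and 0.265 over 9712 genes of higher level. Between unlike numbers they ran from -0.323 to 0.066 over all genes and from -0.334 to 0.103 over those of higher level. There knockout 5 correlated more with wild type 6 (0.103) than with wild type 5 (0.036). The block was thus chosen from the same values that it was used to test, and the labels do not state a pairing. Alternatives used DESeq2 1.42.0, limma 3.58.1, and log2(TPM + 1) or log2(TPM + 0.1), in 20 settings in all.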

Additional observations from a re-analysis of the deposited data

How the results depend on the processing

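The main count was 8 genes, 3 higher and 5 lower. It was 5 (2 higher, 3 lower) with a mean of at least 5 CPM and 1 (0 higher, 1 lower) with the 6 IFN libraries alone. With Y-linked transcripts as a covariate it was 5 (1 higher, 4 lower), and in DESeq2 it was 42 (18 higher, 24 lower). Of the 8 main calls, 3 (Cnbd2, Lyz2 and Rab4a) kept their call with that covariate. Lyz1, Pira2, Fam177a, Camk2b and Rbm44 lost it, and the other 2 genes called were Rnf17 and Wdfy1. With the replicate block, the pairing taken from the title numbers, it was 24 (10 higher, 14 lower) over 18 libraries and 2 (0 higher, 2 lower) over the 6 IFN libraries, and the block over 18 libraries left both differences between treatments at 0 calls. Leaving out 1 IFN library at a time gave 2 to 6 calls, 0 to 3 higher and 2 to 3 lower; an arm of 2 is assumed to vary like the other groups. Without wild type 6 the difference from untreated cells called 9 genes and that from IL4 4; the other single libraries gave 0. DESeq2 called 26 and 4. The cause of these moves was not tested. The older edgeR estimate (7 calls) and the fit without untreated wild type 3 (7 calls) were added after seeing the data.

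Over the called genes, 105 of 157 values under the alternatives kept their call, 52 lost it and 0 changed direction. Among 1273 values of other named genes, 21 passed the threshold and 7 changed sign. With the Y-linked covariate the Gbp2 log2 fold change was -0.30, the Igtp log2 fold change -0.00503 and the Cxcl9 log2 fold change -0.73. Without single libraries the Cxcl9 log2 fold change ran from -0.064 (without wild type 5) to 1.52, the Sparc log2 fold change from -0.037 (without knockout 6) to 2.16 and the Cp log2 fold change from -0.75 (without knockout 5) to 1.08. On log2(TPM + 0.1) Cp was -0.025. The Rpl13a CPM difference after IFN ran from -317 to -199 and the Lyz2 CPM difference after IFN from -3593 to -2986 when single libraries were left out. In the simulation, which fitted all 18 libraries, most 1.5-fold changes were not called. What the 6 IFN libraries alone could call was not simulated. Rbm44 and Lyz1 rest on few counts.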
